A study of Mus musculus with 6 samples.

Results

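Inhibins, activins, anti-Müllerian hormone (AMH) and the follistatins form a hormone system that the ovary makes and answers to, and it was described here through 10 genes. The genes were picked by symbol, with earlier results of these data known, from the 19423 genes of the deposited table, and all 10 were among the 15787 genes tested. They are 4 ligand genes (Inha, Inhba, Inhbb and Amh), 2 genes of binding proteins (Fst and Fstl3) and 4 receptor genes (Acvr2a, Acvr2b, Acvr1b and Amhr2). RNA was sequenced from whole ovaries of balb/c-nude mice, a strain that lacks a working thymus and so accepts grafted human cells. The control group held 3 ovary samples and the tumor group 3, all labelled day 80, and the tumor animals carried MBA-MD-231 cells, as the labels spell the name, injected under the skin. In the treatment field the final digits of this name differ between the tumor animals, whereas the cell line field is identical in all 3, and the cells are described only as cancer cells. The age of the animals is not given in the labels used here, and the control samples carry no note of a sham injection.

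Each inhibin is an alpha subunit, from Inha, joined to a beta subunit from Inhba or Inhbb, whereas activins are pairs of beta subunits alone. The 2 kinds of hormone therefore compete for the same beta subunits. Granulosa cells of growing follicles are the main ovarian source. Inhibin reaches the pituitary and holds back follicle-stimulating hormone (FSH), and activin acts in the opposite direction and also within the follicle. Follistatin (Fst) and the follistatin-like protein of Fstl3 bind activin and keep it from its receptors. AMH is made by granulosa cells of small growing follicles and restrains the recruitment of resting follicles through its own receptor.

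The libraries held between 18278614 and 19238900 estimated counts, and a count of 3 corresponded to between 0.156 and 0.164 CPM (counts scaled to the size of the library). The 8 granulosa markers and 9 oocyte markers used to check the tissue were above 0 in all 6 libraries. A principal component analysis of log2 CPM put 52.1% of the variance on its first axis, where tumor 1 (-34.6) lay near control 1 (-42.8) and control 2 (-42.1), control 3 lay at -5.2, and tumor 2 and tumor 3 lay at 49.6 and 75.1. The summed level of 8 adipocyte markers, of which Ucp1 was at 0 in at least 1 library, was 7161 CPM in tumor 1 and 2870 CPM in tumor 3, against 433.9 to 622.7 CPM in the other 4. The 8 oviduct markers summed to 1950 to 2254 CPM in tumor 1, control 1 and control 2 and to 64.0 to 501.6 CPM in the other 3. The labels do not say whether the 3 samples of a group came from separate animals, so the p-values measure the spread between these samples, which may in part be technical.

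In edgeR's quasi-likelihood test with Benjamini-Hochberg adjustment over all genes tested, 2 of the 10 genes passed an adjusted p of 0.05. Fstl3 fell to 0.447 times its control level and Acvr2b rose 1.41-fold. Among all genes tested 7.71% passed in either direction, 3.8% as higher in the tumor group and 3.91% as lower, so that 1 higher and 1 lower of 10 is a larger share, on very few genes. Both activin beta subunit genes had the largest estimates of the 10, 1.48 for Inhba and 1.16 for Inhbb on the log2 scale, and neither passed. The 3 tumor values lay wholly outside the 3 control values for 5 of the 10 genes, which compares with 38.1% of all genes tested. The median log2 fold change of the 10 was 0.20, beside -0.01 for all genes tested. In bulk tissue, fewer cells of a kind and less RNA per cell cannot be told apart.

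**Figure D1:**
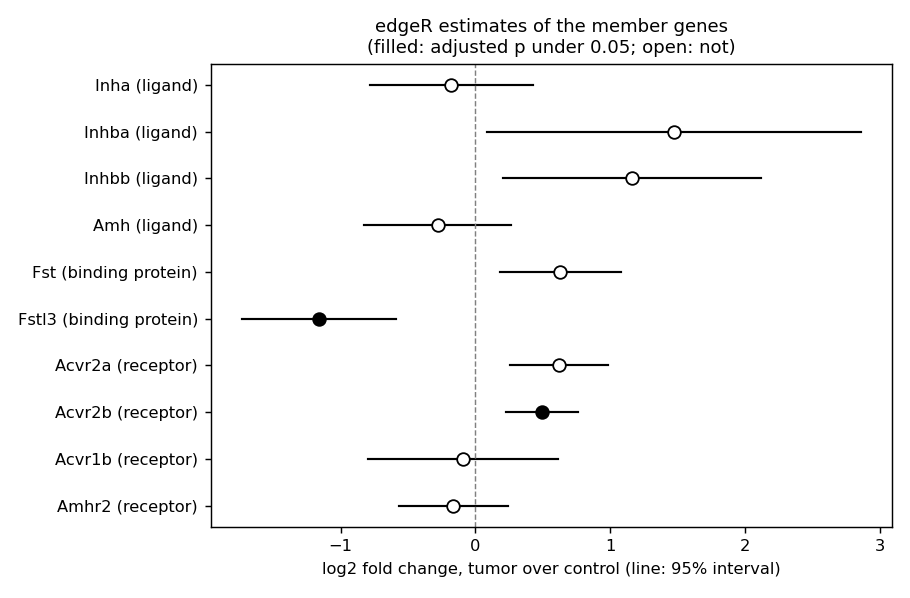
Log2 fold change of each gene, tumor over control, from edgeR, with its 95% confidence interval as a line. Filled points passed an adjusted p of 0.05: Fstl3 on the lower side and Acvr2b on the higher side. The intervals of Inhba and Inhbb lie above 0 but are wide, and those of Inha, Amh, Acvr1b and Amhr2 span 0.

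Of the 4 ligand genes none passed in edgeR, with 2 at an unadjusted p under 0.05, a level that 31% of all genes tested reached. The authors' own method, DESeq2, run again on the same counts called 1, Inhbb, where it called 3012 of all 15787 genes. Of the 4 ligand genes limma on log2 FPKM called none. The ligands split into the beta subunits, with positive estimates, and Inha and Amh, with estimates near 0 or below it.

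Inha encodes the alpha subunit that turns a beta subunit into inhibin. It stands at chr1:75507077-75510366 of GRCm38.p6 and had the highest level per transcript length of the 10 genes, 4001 ± 247.2 TPM (SD, n = 3) in control and 3943 ± 1170 TPM (SD, n = 3) in tumor. Its normalised counts were 3198, 2596 and 2999 CPM in control 1 to 3 and 1660, 3039 and 3078 CPM in tumor 1 to 3. Tumor 1 was the lowest library, and tumor 2 and tumor 3 sat at the control level. The log2 fold change was estimated at -0.18 ± 0.25 (SE), with a 95% confidence interval of -0.78 to 0.43 and an edgeR adjusted p of 0.676. It turned to 0.06 when tumor 1 was left out.

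Inhba encodes the beta A subunit, the building block of activin A and inhibin A. The gene spans chr13:15944764-16032275 in the deposited annotation. Control libraries held 75.3, 223.3 and 86.9 CPM and tumor libraries 172.5, 448.0 and 452.7 CPM. Tumor 2 and tumor 3 were the highest of the 6, but control 2 lay above tumor 1, so the groups overlapped. This gave a log2 fold change of 1.48 ± 0.57 (SE), an interval from 0.09 to 2.86 and an edgeR adjusted p of 0.143. In the authors' deposited table the gene had a log2 fold change of 1.49 and a q-value of 0.117. Theca markers, from the steroid-producing layer around the follicle, had their highest sums in the 3 libraries highest for Inhba, but in another order. All 8 were detected, 6 had estimates above 0, and 2 of these (Ptch1 and Hhip) passed the test as higher. Lhcgr (log2 fold change -1.09) and Tcf21 (-0.42) had estimates below 0 and did not pass. The sum of the 8 was highest in control 2 (4039 CPM), with 2491 CPM in tumor 2 and 3341 CPM in tumor 3. It was 553.9 to 700.6 CPM in the other 3 and lowest in tumor 1. Inhba, in contrast, was higher in tumor 1 than in control 1 and control 3. Cyp17a1, the androgen-synthesis enzyme, gave 2669 CPM of the sum in control 2, 1533 CPM in tumor 2 and 2273 CPM in tumor 3, and 14.3 to 37.5 CPM in the other 3. The part of theca RNA in the Inhba values was not tested.

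Inhbb encodes the beta B subunit, found in activin B and inhibin B, at chr1:119415463-119422248 on the minus strand. It measured 302.2, 130.7 and 302.6 CPM in control and 369.9, 680.3 and 594.0 CPM in tumor. Every tumor library was above every control library, and control 2, the highest control for Inhba, was the lowest for Inhbb. The 8 granulosa markers, taken without Inhbb and Amh, had their lowest sum in control 2 too (960.8 CPM) and their highest in tumor 2 and tumor 3 (1646 and 1790 CPM), none was at 0, and the sum was 1245 CPM in tumor 1 and at most 1506 CPM in control. None of the 8 passed in edgeR, and 3 had an unadjusted p under 0.05, a level that 31% of all genes tested reached. The log2 fold change was above 0 for 6 of the 8 and below it for Cyp19a1 (-0.83) and Hsd17b1 (-0.09). DESeq2 called 2 of the 8 as higher, and 3012 of all 15787 genes in either direction. By limma none of the 8 was called. The part of granulosa RNA in the Inhbb values was not tested. The Inhbb log2 fold change was 1.16 ± 0.39 (SE) with an interval of 0.20 to 2.12 and an adjusted p of 0.111 in edgeR. DESeq2 on the same counts gave an adjusted p of 0.00518, and the authors' deposited table lists a q-value of 0.00677.

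Because the beta subunit genes had the largest positive estimates and Fstl3 the largest negative one, the 250 bases before their RefSeq start sites are shown. Of the 10 genes, 8 had an entry in the RefSeq promoter table (GRCm38.p6). Capitals mark matches to a TATA box (TATAAA, or TTTATA on the other strand) or a GC box (GGGCGG, or CCGCCC on the other strand). Each runs 5′ to 3′ on the gene's own strand, and positions count back from the start site.
Inhba, chr13:16011601-16011850, plus strand: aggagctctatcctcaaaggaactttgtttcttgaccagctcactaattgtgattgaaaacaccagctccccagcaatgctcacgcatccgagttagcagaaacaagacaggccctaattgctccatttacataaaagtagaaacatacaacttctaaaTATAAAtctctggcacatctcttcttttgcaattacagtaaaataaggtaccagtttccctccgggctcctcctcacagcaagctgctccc
Inhbb, chr1:119422249-119422498, minus strand: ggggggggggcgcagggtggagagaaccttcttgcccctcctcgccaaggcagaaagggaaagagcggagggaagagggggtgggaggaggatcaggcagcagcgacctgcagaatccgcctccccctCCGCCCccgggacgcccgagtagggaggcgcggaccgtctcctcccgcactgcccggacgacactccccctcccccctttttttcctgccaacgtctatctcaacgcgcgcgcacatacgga
Fstl3, chr10:79777024-79777273, plus strand: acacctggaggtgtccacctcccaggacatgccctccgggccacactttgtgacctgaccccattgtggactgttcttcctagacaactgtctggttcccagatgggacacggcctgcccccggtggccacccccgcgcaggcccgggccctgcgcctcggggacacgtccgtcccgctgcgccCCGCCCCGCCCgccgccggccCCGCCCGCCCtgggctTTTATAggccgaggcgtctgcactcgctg
The Inhba window lies inside the longer span of the deposited annotation and directly before the start of the gene in GENCODE. It was 43.2% G and C and held a TATA box match at -91 and no GC box match. The Inhbb window was 68.0% G and C, with 1 GC box match at -122 and no TATA match. The Fstl3 window was 71.2% G and C and held 4 GC box matches, at -66, -61, -45 and -41, beside a TATA match on the reverse strand at -29. Over 32851 promoters in the table, 12.4% held a TATA match and 32.7% a GC box match in 250 bases. The 2 beta subunit genes, whose products pair with each other, thus have windows of different base composition, and these matches are letters only, not binding sites.

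The full cyclic AMP response element, TGACGTCA, was searched for on both strands because inhibin and activin subunit genes are known to answer FSH through cyclic AMP. It occurred in 0 of the 8 windows and in 1.55% of all promoters, and the shorter TGACG within it in 0 of 8 and 17.8%. The window in the table for Inha, chr1:75507359-75507608, lies inside the gene and not before its start at 75507077, so the search did not cover the sequence before the Inha gene. GATA sites (AGATAA) and FOX sites (GTAAACA) also had no match in the 8 windows, against 9.99% and 3.17% of all promoters. CCAAT boxes (CCAAT) matched in 1 of the 8 windows and in 33.8% of promoters. A GC box match was present in 6 of the 8.

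The alpha subunit was more abundant than the beta subunits by length-corrected level in both groups, but by a different margin. Inhba and Inhbb together came to 157.2, 137.2 and 169.3 TPM in control 1 to 3 and to 260.5, 514.1 and 458.6 TPM in tumor 1 to 3. The ratio of Inha to that sum was 26.5, 27.1 and 24.3 in control and 9.95, 9.04 and 10.0 in tumor. Within each group the 3 ratios lay close together although the single genes did not: control 2 had the highest Inhba and the lowest Inhbb of its group, and tumor 1 had the lowest Inha, Inhba and Inhbb of its own. On the log2 scale the ratio was 4.70 ± 0.08 (SD, n = 3) in control and 3.27 ± 0.08 (SD, n = 3) in tumor, a difference of -1.43. The 2-sided exact permutation p was 0.1, the smallest that 3 against 3 samples allow, and 0.2 after Benjamini-Hochberg adjustment over the 4 ratios compared. The difference stayed between -1.47 and -1.38 when each library was left out in turn, and it was -1.13 after a length correction and -1.35 after a GC correction. The ratio is one of RNA levels, and the hormones themselves were not measured.

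The balance of the 2 beta subunits to each other showed no such pattern. Inhba to Inhbb was 0.163, 1.13 and 0.189 in control and 0.309, 0.436 and 0.504 in tumor. Control 2 stood above all others and the remaining control libraries below all tumor libraries. The difference of 0.32 in mean log2 ratio had an exact permutation p of 0.8, and its sign turned without control 1 (-0.18) or without control 3 (-0.07), while it was 1.21 without control 2.

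**Figure D2:**
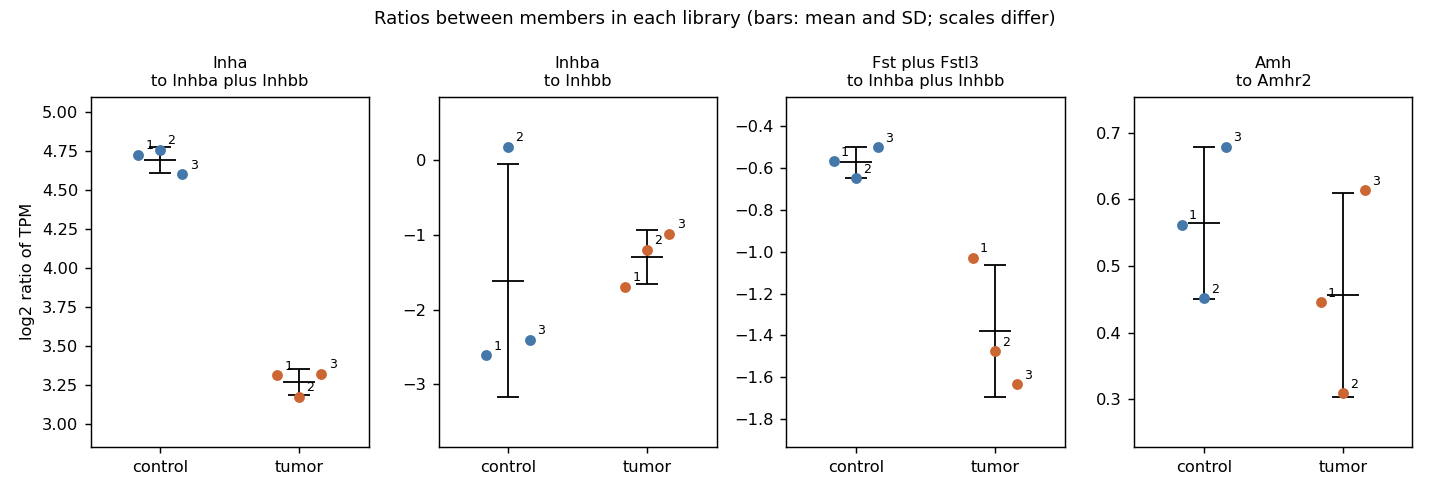
Ratios of TPM between genes in each library on a log2 axis, with replicate numbers beside the points and the mean and SD as bars; each panel has its own scale. The ratio of Inha to the summed beta subunits separates the groups (means of 4.70 in control and 3.27 in tumor), as does the ratio of binding proteins to beta subunits, and the other 2 panels overlap.

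Amh, at chr10:80805240-80807679, encodes anti-Müllerian hormone. Its levels were 281.2, 184.3 and 315.8 CPM in control and 187.1, 199.8 and 257.4 CPM in tumor. All 3 tumor libraries fell inside the control range. Tumor and control differed by -0.28 ± 0.23 (SE) on the log2 scale, with an interval of -0.82 to 0.27 and an edgeR adjusted p of 0.446. Its transcript is the richest in G and C of the 10 (65.4%, at the 99.6th percentile of genes), and the estimate became 0.07 after a GC correction. The sums of the granulosa markers, given with Inhbb, overlapped between the groups.

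Of the 2 binding protein genes, Fstl3 fell and Fst did not pass. Fstl3 lies at chr10:79777274-79782630, and it shares 1157 bases with Prss57 on the other strand. Whether the counting used strand is not given in the sources used here, so reads of the 2 genes in that stretch cannot be told apart. It measured 25.5, 15.6 and 23.8 CPM in control and 7.79, 11.1 and 10.1 CPM in tumor. All tumor libraries lay below all control libraries, with tumor 1 the lowest. On the log2 scale the change was -1.16 ± 0.24 (SE), its interval ran from -1.73 to -0.59, and the edgeR adjusted p was 0.0429. The authors' deposited table has -1.14 with a q-value of 0.000853. The call was lost without control 1 (adjusted p = 0.159), control 3 (0.141), tumor 2 (0.0965) or tumor 3 (0.129). In each of these fits 0 to 5 of all genes tested passed. Luteal markers, from the progesterone-producing corpus luteum, were also lower: 3 of 8 passed, none was at 0, and their sum was 14710 to 15700 CPM in control and 2583 to 8340 CPM in tumor, lowest in tumor 1. Most of the sum came from Cyp11a1 and Hsd3b1 (7326 and 6153 of 15250 CPM in control 1), which did not pass. Of the 8 smooth muscle and endothelial markers, 2 passed as lower, the muscle genes Cnn1 and Des. The list had no gene at 0 and summed to 2219 to 2475 CPM in control and 1371 to 2020 CPM in tumor. Its endothelial genes were split, and none of them passed. Vwf (log2 fold change 0.87) and Kdr (0.26) had positive estimates, and Pecam1 (-0.21) and Cdh5 (-0.34) negative ones. The part of either list in the Fstl3 values was not tested. The Fstl3 call was also lost with the mean of the adipocyte markers as a covariate, at a log2 fold change of -0.77 and an adjusted p of 0.33. With that covariate 0 of all 15787 genes tested passed, so the loss is not particular to Fstl3.

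Fst encodes follistatin, and the deposited annotation places it at chr13:114452262-114462047 on the plus strand where GENCODE has the minus strand. Its levels were 110.8, 87.6 and 123.5 CPM in control and 134.5, 199.9 and 163.3 CPM in tumor. The tumor libraries all exceeded the control libraries, by the narrowest margin between tumor 1 and control 3. An estimated log2 fold change of 0.63 ± 0.19 (SE) came with an interval of 0.18 to 1.08 and an edgeR adjusted p of 0.0823. It passed when tumor 1 was left out (adjusted p = 0.0395) and in DESeq2 (0.0113), and the authors' deposited table lists a q-value of 0.0157. Of its 4 transcripts with deposited TPM, 1 made up 67.4 ± 9.20% (SD, n = 3) of the gene in control and 64.7 ± 6.33% (SD, n = 3) in tumor.

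Set against the ligands they bind, the 2 binding proteins had less RNA per beta subunit RNA in the tumor group. The ratio of Fst plus Fstl3 to Inhba plus Inhbb, in TPM, was 0.674, 0.638 and 0.706 in control and 0.49, 0.359 and 0.322 in tumor. All tumor ratios were below all control ratios. The mean log2 ratio was -0.57 ± 0.07 (SD, n = 3) in control and -1.38 ± 0.31 (SD, n = 3) in tumor, a difference of -0.81 with an exact permutation p of 0.1 and an adjusted p of 0.2 over the 4 ratios. Fst made up most of the sum in both groups, so the ratio says little of Fstl3. It shares its denominator with the ratio of Inha to the beta subunits and is not a separate observation of it.

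**Figure D3:**
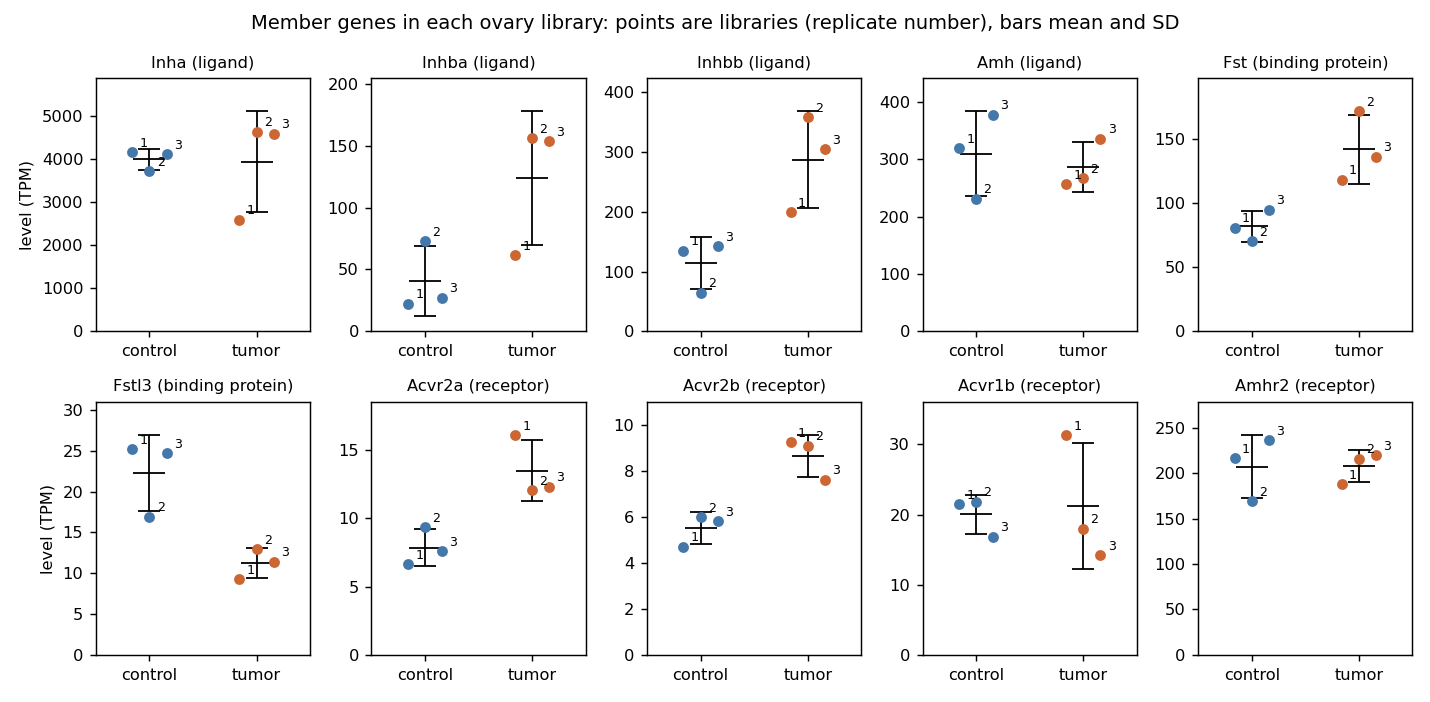
Level of each gene in every library in TPM, with replicate numbers beside the points and the mean and SD as bars; each panel starts at 0 and has its own scale. The groups do not overlap for Inhbb, Fst, Fstl3, Acvr2a and Acvr2b. In the panel of Inhba control 2 lies above tumor 1, and in that of Inha tumor 1 lies apart from the other 5 libraries.

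Of the 4 receptor genes, Acvr2b rose and the other 3 did not pass. Acvr2b and Acvr2a encode the type II receptors that activins bind first, and inhibin competes for them. Acvr2b, at chr9:119401583-119444831, measured 26.1, 29.9 and 30.8 CPM in control and 42.5, 42.8 and 37.0 CPM in tumor. Its groups did not overlap, and its spread was small in both, 28.9 ± 2.48 CPM and 40.7 ± 3.28 CPM (SD, n = 3 each). The estimated log2 fold change was 0.49 ± 0.11 (SE) with an interval of 0.23 to 0.76 and an edgeR adjusted p of 0.0487. That is just under the threshold, and the adjusted p was 0.051 with DESeq2 size factors and 0.0554 without a filter on low counts. Without tumor 1 it was 0.0519, in a fit where 2605 of all genes tested passed. It was between 0.12 and 0.16 without control 1, control 3, tumor 2 or tumor 3. In those fits 0 to 5 of all genes tested passed, so these losses are not particular to Acvr2b. The 9 oocyte markers, of which 6 passed as higher and none was at 0, summed to 350.1, 368.5 and 461.9 CPM in control and 690.9, 543.4 and 611.7 CPM in tumor, so that their groups were apart in the same direction as Acvr2b and Acvr2a. Their part in the values of these receptors was not tested. The deposited transcript values split the gene over 4 transcripts whose shares ranged from 0% to 74.5% between libraries, so no transcript is described.

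Acvr2a, at chr2:48814109-48903264, held 19.8, 25.3 and 21.6 CPM in control and 40.0, 30.6 and 32.1 CPM in tumor. All tumor libraries were above all control libraries. The log2 fold change was 0.62 ± 0.15 (SE), its interval ran from 0.26 to 0.98, and the edgeR adjusted p of 0.0559 missed the threshold. It passed in DESeq2 (0.00987), with the oviduct markers as a covariate (0.0272) and without control 2 (0.0422), and the authors' deposited table gives a q-value of 0.0107. Tumor 1, the library with the most adipocyte marker RNA, was the highest for Acvr2a, as for the oocyte markers, and the lowest for Fstl3. With the adipocyte marker mean as a covariate the log2 fold change of Acvr2a was 0.36, with an adjusted p of 0.362. With that covariate 0 of all 15787 genes tested passed, so the adjusted p is not particular to Acvr2a. The part of adipose RNA in these values was not tested. The gene shares 446 bases with Orc4 on the other strand.

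Acvr1b encodes a type I receptor that the type II receptors recruit for activin, at chr15:101174072-101213684. It measured 49.8, 46.0 and 37.1 CPM in control and 60.4, 35.5 and 28.7 CPM in tumor. Tumor 1 was the highest library and tumor 3 the lowest, so the tumor group spanned the controls. The 8 oviduct markers, none of which was at 0, ran in a similar way but in another order. Their sums were 2254, 2153 and 501.6 CPM in control and 1950, 150.5 and 64.0 CPM in tumor, highest in control 1. Ovgp1 gave 1821, 1627 and 1290 CPM of the sums in control 1, control 2 and tumor 1. No marker of the 8 passed in edgeR, DESeq2 or limma, with 0 at an unadjusted p under 0.05 in edgeR. The part of oviduct RNA in the Acvr1b values was not tested. The log2 fold change was -0.09 ± 0.29 (SE), with an interval of -0.80 to 0.61 and an edgeR adjusted p of 0.861, and its sign changed to 0.11 without tumor 3 and to 0.22 with the oviduct markers as a covariate.

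Amhr2, at chr15:102445002-102454640, encodes the type II receptor that only AMH uses. Levels were 218.0, 154.3 and 226.1 CPM in control and 157.4, 184.6 and 192.5 CPM in tumor. The tumor libraries lay within the control range, as for Amh. The log2 fold change was -0.16 ± 0.17 (SE) with an interval of -0.57 to 0.24 and an adjusted p of 0.556 in edgeR. Amh to Amhr2, in TPM, was 1.48, 1.37 and 1.6 in control and 1.36, 1.24 and 1.53 in tumor, a difference of -0.11 in mean log2 ratio with an exact permutation p of 0.4 and an adjusted p of 0.533. Amhr2 was the single gene of the 8 with a match to the site of NR5A receptors (AAGGTCA, both strands), which 4.08% of promoters held. Those nuclear receptors are regulators of gonadal genes, and the 30 bases around the match, at -231 from the RefSeq start, are printed with the site in capitals. The stretch lies inside the gene as the deposited annotation draws it.
Amhr2, chr15:102445125-102445154, plus strand: caccttcttccAAGGTCAgtaggggtagag

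Compared per transcript length, the order of the levels in control was Inha, Amh (309.4 TPM), Amhr2 (207.1), Inhbb (114.0), Fst (82.1), Inhba (40.6), Fstl3 (22.3), Acvr1b (20.1), Acvr2a (7.84) and Acvr2b (5.51). The library ranges of neighbours overlapped for Amh and Amhr2, and along the run from Inhbb through Fst, Inhba and Fstl3 to Acvr1b. In tumor the order was Inha, Inhbb (287.3 TPM), Amh (286.4), Amhr2 (207.7), Fst (142.2), Inhba (123.8), Acvr1b (21.2), Acvr2a (13.5), Fstl3 (11.2) and Acvr2b (8.66). Inhbb thus ranked below Amhr2 in control, with no overlap of their ranges, and level with Amh in tumor. Fstl3 ranked above Acvr1b and Acvr2a in control and below them in tumor, where its range overlapped that of Acvr2a. Inha was at the 100.0th percentile, to 1 decimal, of mean TPM among all genes in the table, Amh at the 97.6th and Acvr2b at the 40.9th.

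Over the 6 libraries, some of the 10 genes varied together in log2 CPM, given here as a description over libraries that also differ by group. Pearson's r was 0.969 for Inhbb with Fst, 0.95 for Amh with Amhr2 and 0.905 for Acvr2a with Acvr2b. Fstl3 ran against both type II activin receptors, with r of -0.99 for Acvr2a and -0.895 for Acvr2b. Inhba and Inhbb had r of 0.489.

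Among 11659 genes with an average log2 CPM of at least 3, those most like each ligand were found by the same correlation. For Inha they were Hdhd5 (r = 0.998), Pgrmc1 (0.995) and Pold2 (0.994), and for Inhba Dnah8 (0.998), Rrs1 (0.997) and Ern1 (0.997). For Inhbb they were Rpl3 (0.996), Lrp1 (0.996) and Ticrr (0.995), for Amh Rfxap (0.993), Ndufa10 (0.97) and Olfr1033 (0.969), and for Fst Edc3 (0.998), Tfdp2 (0.997) and Abca9 (0.991). With 6 points and this many genes, values this high are to be read as a ranking only.

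The wider pathway was read from lists of other genes. For comparison, 3.8% of all genes tested passed as higher and 3.91% as lower, and 7654 of 15787 had estimates above 0. Of 6 other ligands tested, 2 rose, both oocyte growth factors that act on granulosa cells. Gdf9 measured 71.8, 72.4 and 96.4 CPM in control and 148.0, 122.0 and 136.6 CPM in tumor, or 0.76 ± 0.15 (SE) as a log2 fold change, with an edgeR adjusted p of 0.0396. Bmp15 had 0.99 ± 0.17 (SE) and an adjusted p of 0.0382. Both are among the 9 oocyte markers whose sums are given with Acvr2b. Tgfb1, a transforming growth factor of many cell types, had -0.65 ± 0.17 (SE) and an adjusted p of 0.0661. The 2 liver-type beta subunit genes, Inhbc and Inhbe, were at 0 or under the level of 3 counts in every library.

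Of 12 other receptors and co-receptors tested, 2 rose and 1 fell. Bmpr1b, a type I receptor for bone morphogenetic proteins, measured 42.5, 62.7 and 36.0 CPM in control and 102.7, 113.3 and 102.7 CPM in tumor. Its groups lay far apart, with a log2 fold change of 1.17 ± 0.21 (SE) and an edgeR adjusted p of 0.0385. Bmpr2, the type II receptor that GDF9 and BMP15 use, rose by 0.91 ± 0.17 (SE) on the log2 scale (adjusted p = 0.0386). Acvr1, a type I receptor shared by bone morphogenetic proteins and AMH, fell from 102.5 ± 10.9 CPM to 51.1 ± 13.4 CPM (SD, n = 3 each; edgeR adjusted p = 0.0412). The median log2 fold change of the 12 was 0.27.

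Of 8 SMAD genes, the carriers of the signal from these receptors to the nucleus, 2 rose. Smad4, the partner shared by both branches of the pathway, had 104.5, 115.4 and 109.8 CPM in control and 139.8, 138.3 and 141.2 CPM in tumor, with a log2 fold change of 0.35 ± 0.08 (SE) and an edgeR adjusted p of 0.0481. Smad5, of the bone morphogenetic protein branch, had 0.45 ± 0.10 (SE) and 0.0479. Smad3, of the activin branch, had 0.31 ± 0.08 (SE) and 0.0663. Estimates were above 0 for 6 of the 8, with a median of 0.31. Smad4 and Smad5 passed in 5 of the 16 alternatives each, and after a GC correction their adjusted p was 0.054 and 0.075, after a length correction 0.0602 and 0.172.

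Of 11 other antagonists and processing enzymes tested, none passed in edgeR, 3 had an unadjusted p under 0.05, a share below the 31% of all genes tested, and DESeq2 called 1 as lower. Fstl1, a distant follistatin relative, had a log2 fold change of -0.59 ± 0.19 (SE) and an edgeR adjusted p of 0.0938. Nog, an antagonist of bone morphogenetic proteins, had 0.96 ± 0.39 (SE) and 0.154. Furin, which cuts the precursors of these ligands, had -0.23 ± 0.09 (SE) and 0.14. The median of the list was 0.09.

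Of 11 transcriptional regulators of the ligand genes, 1 rose. Esr2, the estrogen receptor of granulosa cells, measured 56.5, 68.8 and 58.8 CPM in control and 120.2, 144.9 and 133.9 CPM in tumor. Its groups lay far apart, with a log2 fold change of 1.12 ± 0.12 (SE) and an edgeR adjusted p of 0.0248. Creb1, which binds cyclic AMP response elements, had 0.54 ± 0.16 (SE) and 0.08, and Gata6 had -0.30 ± 0.18 (SE) and 0.302. The median of the list was 0.03. Among all genes tested the median was -0.01, and in each of these lists 1 to 3 genes or none passed, so the counts are small. The 8 pathway genes that passed (Gdf9, Bmp15, Bmpr1b, Bmpr2, Acvr1, Smad4, Smad5 and Esr2) each lost the call without control 1, control 3, tumor 2 or tumor 3, at adjusted p between 0.062 and 0.178, and with the adipocyte covariate, at 0.252 to 0.337. In each of these fits 0 to 5 of all genes tested passed, so the losses are not particular to these genes.

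**Figure D4:**
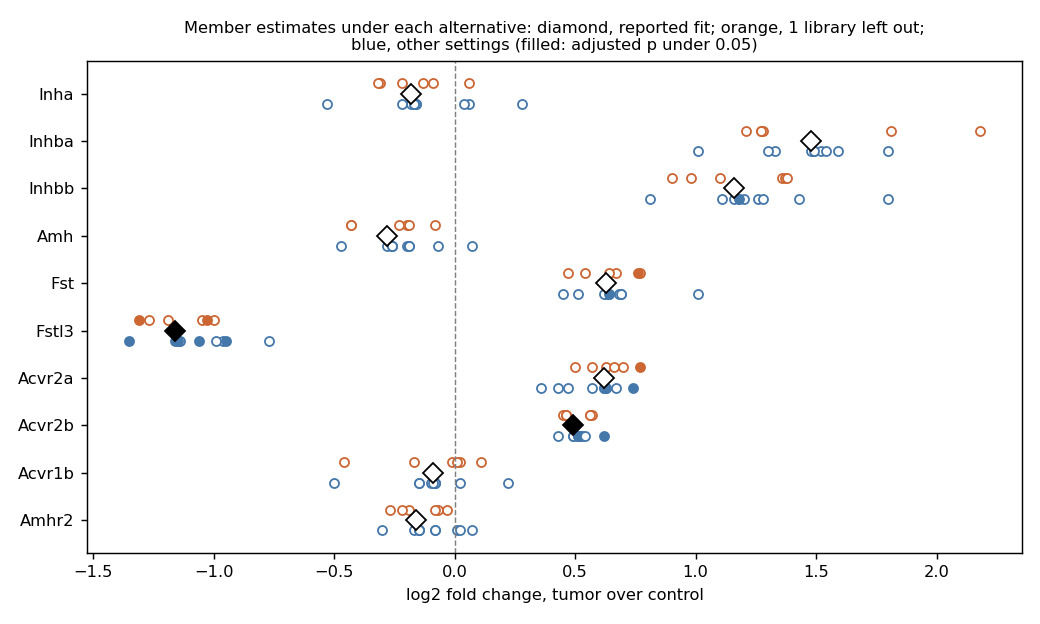
Log2 fold change of each gene under the reported test (diamond), with 1 library left out (orange) and under the other settings (blue); filled marks passed an adjusted p of 0.05. Estimates of Inhba, Inhbb, Fst, Acvr2a and Acvr2b stay above 0 and those of Fstl3 below 0 under all 16 alternatives, while marks of Inha, Amh, Acvr1b and Amhr2 fall on both sides.

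The direction was stable over the 16 alternatives for 6 of the genes, and the call was not. Log2 fold changes ranged from 1.01 to 2.18 for Inhba and from 0.81 to 1.80 for Inhbb. They ranged from 0.45 to 1.01 for Fst, from -1.35 to -0.77 for Fstl3, from 0.36 to 0.77 for Acvr2a and from 0.43 to 0.62 for Acvr2b. The adjusted p was under 0.05 in 8 of the 16 for Fstl3, in 4 for Acvr2b, in 3 for Acvr2a, in 2 for Fst, in 1 for Inhbb and in 0 for Inhba, whose lowest was 0.0518. Of all genes tested, 0 passed with the replicate block or the adipocyte covariate. Without control 1, control 3, tumor 2 or tumor 3, 0 to 5 passed. Losses of a call in those fits are therefore not particular to these genes. Of the 10 genes, 5 have in the authors' deposited table a q-value under 0.05, with Inhbb, Fst, Acvr2a and Acvr2b as higher and Fstl3 as lower, where 14.7% of all 19327 genes with a q-value do.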

How the data were processed

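Libraries of 6 mouse ovary samples were sequenced with the MGIseq500 platform (50 bases, single end), per the labels' protocols. The submitters' processing notes name RSEM 1.2.12, HISAT2 2.0.4 and Bowtie2 2.2.5 beside the build GRCm38.p6, and assign them no step. The authors deposited estimated counts per gene and per transcript, of which 39.2% of the gene values above 0 were not whole to within 0.001. FPKM and TPM columns were deposited for every library too. The authors' DESeq2 comparison was deposited as q-values, p-values and log2 fold changes, per the file headers. A further 24 columns of per-sample values were not used.

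Estimated counts were rounded, filtered with filterByExpr by group, scaled by TMM (factors 0.962 to 1.054) and tested with the quasi-likelihood F test of edgeR 4.0.16 (R 4.3.3), robust, with group as the single term and Benjamini-Hochberg adjustment over 15787 genes at 0.05. CPM are scaled by TMM. Standard errors are the estimate divided by the root of F. Levels of different genes were compared, and ratios formed, in TPM, with exact permutation tests over samples. Limits from 3 counts cover counting error only, since reads lacking molecular identifiers may be copies of 1 molecule. Alternatives used DESeq2 1.42.0, limma 3.58.1 on log2(FPKM + 1) and log2(FPKM + 0.1), other scaling and filters, a replicate block, GC and length corrections (96.2% of genes had both values), marker covariates and each library left out. The test was tried on simulated data first. Named were all 10 genes, up to 3 tested genes with the smallest p from each pathway list, and the 3 genes most like each ligand and Fst. Predicted genes were left out of that ranking. Inhbc, Inhbe and the genes sharing bases with a member were named outside this rule, after their values were seen. So were the marker genes Cyp17a1, Ptch1, Hhip, Lhcgr, Tcf21, Cyp19a1, Hsd17b1, Ovgp1, Cyp11a1, Hsd3b1, Cnn1, Des, Vwf, Kdr, Pecam1, Cdh5 and Ucp1. The genes and lists were chosen with earlier results of these data known.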

Additional observations from a re-analysis of the deposited data

How the results depend on the processing

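The number of genes called was 1217. It was 781 with a GC correction, 462 with a length correction, 0 with the adipocyte marker mean as a covariate, 2294 with the oviduct marker mean, 3012 in DESeq2, and between 0 and 2605 with 1 library left out (0 without control 1 and without tumor 3, 3 without tumor 2, 5 without control 3, 2274 without control 2, 2605 without tumor 1). At an unadjusted p under 0.05 there were 4893 genes, and 2453 with the adipocyte covariate, 3137 without control 1 and 3761 without tumor 3. The number of the 10 genes called higher, 1, became 0 with DESeq2 size factors, no filter, the length correction, the adipocyte covariate and both limma settings, 2 with the oviduct covariate and 4 in DESeq2. It ran from 0 to 2 with 1 library left out. The number called lower, 1, became 0 with the GC, length and adipocyte settings and ran from 0 to 1 with 1 library left out.

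With replicate number as a replicate block, 0 genes were called, none of the 10 among them, with 4233 at an unadjusted p under 0.05 in edgeR. The labels do not say whether the numbers pair the samples. Deviations from the group mean correlated at 0.237, -0.212 and 0.529 between same-numbered samples. The last was the highest of all pairs, and not every sample correlated best with its own number. With 3 samples per group these correlations cannot decide whether the samples were paired. The exact paired p of the ratio of Inha to the beta subunits was 0.25, the smallest that 3 pairs allow.

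Signs turned for Inha (0.06 with the GC correction, 0.04 with the length correction, 0.28 with the adipocyte covariate, -0.32 to 0.06 with 1 library left out), for Amh (0.07 with the GC correction), for Acvr1b (0.02 with the GC correction, 0.22 with the oviduct covariate, -0.46 to 0.11 with 1 library left out, turning to 0.02 without control 1 and to 0.01 without tumor 2) and for Amhr2 (0.07 GC, 0.01 length, 0.02 adipocyte). Inhba to Inhbb turned to -0.11 with the GC correction and ran from -0.18 to 1.21 with 1 library left out, and Amh to Amhr2 turned to 0.01 with the GC correction. The GC and length corrections of the ratios were chosen after seeing the data. The cause of these changes was not tested. FPKM in place of TPM changed no ratio to 2 decimals.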
